A study of Mus musculus with 2197 samples.

Results

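Insulin-producing cells of the mouse pancreas at E14.5 (E, embryonic day) were described in 2 droplet libraries. Of 10904 deposited cell barcodes, 10170 held at least 1000 detected genes and under 10% of their counts from mitochondrially encoded (mt-) genes, and 139 of these were beta-like. The beta-like cells had at least 30 UMIs of Ins1 plus Ins2 per 10000 UMIs, more insulin than Gcg UMIs, at least 1 UMI of Chga, a granule protein gene of all endocrine cells, and 0 UMIs of the leukocyte gene Ptprc. A UMI (unique molecular identifier) counts 1 captured transcript, and in levels pooled over cells fewer cells with a transcript and less of it per cell cannot be told apart. Library 1 gave 15 beta-like cells of 3406 passing barcodes (0.440%, exact Clopper-Pearson 95% interval 0.247 to 0.725%), and library 2 gave 124 of 6764 (1.83%, interval 1.53 to 2.18%). They were set against the other barcodes with at least 1 UMI of Chga and of the epithelial gene Epcam, 114 in library 1 and 325 in library 2, called other endocrine cells here. The name is a shorthand, since 1 UMI of each gene does not show a cell to be endocrine. Of these barcodes 32 and 151 carried markers of other cell types, as given below. The cells were chosen by their measured Ins1, Ins2, Gcg, Chga and Ptprc values, so every droplet contrast below is a description with no test.

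The droplet libraries came from digested whole pancreas, with no reporter and no sort, and the labels give neither the strain nor the number of embryos. The same series held Smart-seq2 libraries, full-length libraries of single sorted cells, which played no part in the choice of the beta-like cells. From E15.5 these were Ins1-RFP+ cells (red fluorescence under the Ins1 reporter, sets of 10 and 29 cells), Gcg-GFP+ cells from Gcg-P2A-GFP embryos (sets of 16 and 20) and Ngn3-GFPhigh cells, the brighter cells of an Ngn3-GFP knock-in strain (sets of 21 and 30). Ngn3-GFPlow and Pdx1-Cre; ROSA-RFP cells of E15.5 entered the same fit to estimate the spread. A reporter protein can outlast the transcript that drove it, and the labels do not say whether a set is an animal, a litter or a sort, so a p-value below rests on how far sets of a group lie apart, and that distance may be technical.

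Beta cells make insulin, pack it into dense granules with islet amyloid polypeptide, and release it when blood glucose rises. In the embryo they arise from pancreatic progenitors that pass through a brief phase of the transcription factor Neurog3, leave the cell cycle and then take on a hormone. Mice carry a pair of insulin genes, Ins1 and Ins2, and proinsulin is folded in the endoplasmic reticulum (ER) before the convertases Pcsk1 and Pcsk2 cut it. Hormone genes of the islet are controlled by homeodomain factors such as Pdx1 and Nkx6-1 together with basic helix-loop-helix factors such as Neurod1.

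The promoters of 5 genes that carry the description below are shown from RefSeq on GRCm38.p6, from 250 bases before to 50 bases after the start, 5′ to 3′ on the gene's strand. Ins1 and Iapp are the insulin and amyloid genes, Npy and Nnat had the largest droplet folds outside insulin, and Gcg is the glucagon gene that the cells were required to lack relative to insulin. Capitals mark TAAT on either strand (written TAAT or ATTA), the core letters read by homeodomain proteins, and CANNTG, which reads the same on both strands and is the letter pattern of helix-loop-helix proteins. No TAAT match overlapped a CANNTG match, and in Iapp an ATTA and a TAAT share letters. The positions are chr19:52264047-52264346 (plus strand) for Ins1, chr6:142298175-142298474 (plus) for Iapp, chr6:49822460-49822759 (plus) for Npy, chr2:157559828-157560127 (plus) for Nnat and chr2:62483604-62483903 (minus) for Gcg.
Ins1: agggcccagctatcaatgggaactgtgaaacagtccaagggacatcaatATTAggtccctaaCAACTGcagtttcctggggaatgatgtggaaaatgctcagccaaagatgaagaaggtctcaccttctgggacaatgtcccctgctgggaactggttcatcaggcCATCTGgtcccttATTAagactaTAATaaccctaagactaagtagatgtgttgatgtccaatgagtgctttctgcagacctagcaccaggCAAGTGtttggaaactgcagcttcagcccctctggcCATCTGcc
Iapp: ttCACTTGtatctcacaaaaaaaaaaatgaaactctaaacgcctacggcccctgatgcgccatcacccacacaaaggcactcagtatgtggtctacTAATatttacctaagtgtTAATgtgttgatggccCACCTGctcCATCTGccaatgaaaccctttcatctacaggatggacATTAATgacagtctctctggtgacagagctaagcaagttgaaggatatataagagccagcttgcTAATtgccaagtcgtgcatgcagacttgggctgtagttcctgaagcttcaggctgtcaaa
Npy: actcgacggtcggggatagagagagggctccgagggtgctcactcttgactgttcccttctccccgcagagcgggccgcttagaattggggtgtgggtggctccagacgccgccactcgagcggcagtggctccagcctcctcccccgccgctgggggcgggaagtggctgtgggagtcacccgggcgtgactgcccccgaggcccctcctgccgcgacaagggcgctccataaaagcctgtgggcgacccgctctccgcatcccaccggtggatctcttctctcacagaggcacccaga
Nnat: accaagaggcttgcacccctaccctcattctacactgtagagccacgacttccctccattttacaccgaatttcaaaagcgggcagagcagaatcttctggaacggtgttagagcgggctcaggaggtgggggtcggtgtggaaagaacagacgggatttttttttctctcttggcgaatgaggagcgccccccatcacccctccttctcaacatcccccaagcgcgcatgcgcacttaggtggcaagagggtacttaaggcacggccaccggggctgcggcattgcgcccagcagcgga
Gcg: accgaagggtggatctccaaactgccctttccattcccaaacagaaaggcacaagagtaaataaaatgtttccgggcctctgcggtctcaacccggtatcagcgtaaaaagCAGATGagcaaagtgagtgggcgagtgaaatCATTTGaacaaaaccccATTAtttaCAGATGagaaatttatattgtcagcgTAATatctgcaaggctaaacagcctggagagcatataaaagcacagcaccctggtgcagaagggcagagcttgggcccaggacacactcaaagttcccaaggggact
The Ins1 window held 3 TAAT and 4 CANNTG matches, Iapp 5 and 3, and Gcg 2 and 3. The Npy and Nnat windows held 0 of either kind. Of 32851 mouse promoters of this length, 58% held a TAAT and 72.3% a CANNTG, while 20% and 17.6% held at least 3.

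Beta-like cells had a median of 11280 UMIs in library 1 (6860 to 29570) and 6492.5 in library 2 (3078 to 17343), fewer than the 15010.5 and 9260 of the other endocrine cells. The 2 libraries shared 37 barcodes, of which 0 belonged to a beta-like cell of library 1 and 1 to one of library 2. At least 3 UMIs in all of 8 markers of mesenchyme, endothelium, leukocytes and acini were found in 2 and 29 beta-like cells and in 32 and 151 other endocrine cells. Epcam, which the rule did not ask of beta-like cells, was at 0 in 6 and 66 of them. One beta-like cell of library 1 carried 4466 hemoglobin UMIs per 10000, and 4 of library 2 carried at least 100, with a maximum of 1323. Summed over the red blood cell genes the level was therefore 664 per 10000 in beta-like and 15 in other endocrine cells of library 1, against 32 and 20.1 in library 2. Mesenchymal cells (at least 5 UMIs of Col3a1 and 0 of Epcam) served to show free RNA, with medians of 8300 and 4161 UMIs in libraries 1 and 2.

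**Figure D1:**
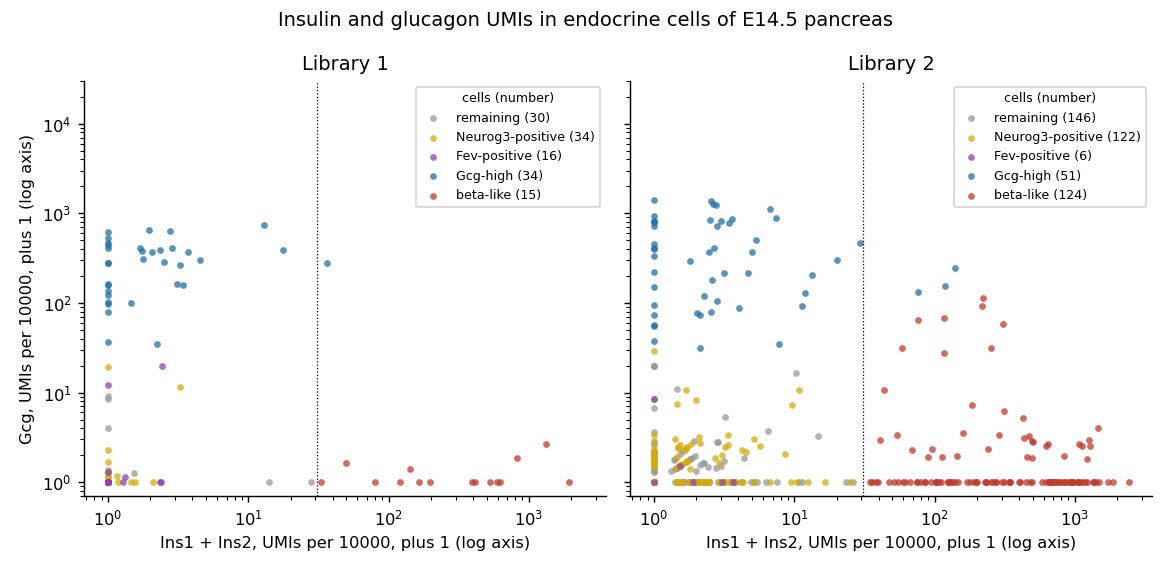
Each point is 1 cell, with Ins1 plus Ins2 UMIs per 10000 (plus 1) on a logarithmic horizontal axis and Gcg UMIs per 10000 (plus 1) on a logarithmic vertical axis, 1 panel per library. The dotted line is the limit of 30 per 10000. The 15 and 124 beta-like cells lie to its right, and the Gcg-high cells (34 and 51) lie high on the Gcg axis and left of the line, except 1 in library 1 and 3 in library 2.

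Insulin levels spanned more than an order of magnitude within the beta-like cells of either library. In library 1 the lowest cell had 32.1 Ins1 plus Ins2 UMIs per 10000, the median cell 390.1 and the highest 1944.5. In library 2 these values were 33.8, 310.0 and 2417. Together Ins1 and Ins2 made up 4.4% and 4.59% of all UMIs of beta-like cells, which held 95.1% and 89.7% of the insulin UMIs of all passing barcodes. At the limit itself, library 1 had 1 Chga-positive cell between 20 and 30 per 10000 and 1 between 30 and 40, and library 2 had 7 and 5. In library 2 those just outside carried 106 Iapp and 5.66 Neurog3 UMIs per 10000 and those just inside 82.0 and 9.92. Of the barcodes past the insulin limit, 2 in library 1 and 5 in library 2 were left out because Gcg was at or above insulin, and 3 in library 2 because Chga was at 0.

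Of the genes that mark the cells, Ins2 and Ins1 were near 0 in other endocrine cells, Nnat was far higher in beta-like cells, and Nkx6-1 was shared with precursors. Ins2 (mm10 chromosome 7, 142678656 to 142743381, minus strand) stood at 284 pooled UMIs per 10000 against 0.503 in library 1 and at 344 against 1.59 in library 2. Ins1 (mm10 chromosome 19, 52264297 to 52265476) stood at 157 against 0.330 and at 115 against 0.593. UMIs count transcript ends and not their length, but how reads of these 2 similar genes were assigned is not given in the sources used here, and some other genes differed between the libraries in all cells alike. Ins2 made up 59.5% of the insulin UMIs in the median cell of library 1 (22 to 99.2%) and 77.9% in library 2 (4 to 100%). The 2 genes rose together across cells (Spearman 0.67 over 15 cells and 0.77 over 124, both from the same UMI totals). Nkx6-1, a homeodomain factor that beta cells keep, had 2.45 against 1.53 UMIs per 10000 in library 1 and 3.02 against 1.58 in library 2. Its fold of 1.60 and 1.91 was below 2, and cells with at least 2 Neurog3 UMIs had 2.17 and 2.41.

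Nnat, Npy and Iapp differed strongly from other endocrine cells, as did Gip, described with the hormones. Nnat (mm10 chromosome 2, 157560078 to 157562522) is an imprinted gene for a small ER membrane protein and had 29.9 UMIs per 10000 against 0.770 in library 1 (38.8-fold) and 59.7 against 1.29 in library 2 (46.4-fold). Mesenchymal cells had 2.87 and 2.07, more than the other endocrine cells. For Nnat this level is therefore not taken as a measure of free RNA, and whether it is their own transcript was not tested. Npy, which encodes neuropeptide Y, had 13.2 against 0.0412 (321-fold) and 12.0 against 0.0304 (397-fold). Its transcripts were unevenly spread, since 7 of 15 and 60 of 124 beta-like cells had 0 UMIs while the highest had 73.4 and 112 per 10000. Npy was detected in 53.3% (interval 26.6 to 78.7%) and 51.6% (42.5 to 60.7%) of beta-like cells, 2.63% and 1.85% of other endocrine cells and 0.285% and 0.629% of mesenchymal cells. With each cell thinned to 3000 UMIs the shares were 46.7% and 44.4% of beta-like and 0.877% and 0.923% of other endocrine cells. Iapp, the amyloid polypeptide that is secreted with insulin, had 157 against 5.65 (27.7-fold) and 269 against 15.2 (17.7-fold), with a median cell at 197 and 255. Every beta-like cell had at least 1 Iapp UMI, against 56.1% and 60.6% of other endocrine cells and 1.94% and 10.9% of mesenchymal cells. In the cells high in Gcg, described below, the shares were 88.2% and 96.1%.

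Transcripts of other islet hormones were also found in beta-like cells. Pyy, which encodes peptide YY and is widespread in embryonic islet cells, was present in 86.7% and 89.5% of them (8.95% and 12.1% of mesenchymal cells) at 115 UMIs per 10000 in library 1 and 52.9 in library 2, against 31.3 and 27.3 in other endocrine cells. Gip, the incretin gene of gut K cells, had 18.8 against 0.157 in library 1, where 319 of 384 UMIs lay in 1 cell that also carried markers of another cell type. Without that cell it had 3.44 per 10000, a 22-fold difference, close to the 3.26 against 0.179 of library 2 (18.2-fold). It was detected in 60% and 50% of beta-like cells (33.3% and 36.3% when thinned), 7.89% and 6.77% of other endocrine cells and 0.228% and 0.360% of mesenchymal cells. Ghrelin (Ghrl) was at 2.15 and 1.58 per 10000 in beta-like and 10.3 and 5.26 in other endocrine cells, and 44 of 44 and 103 of 143 of its UMIs in beta-like cells came from 1 cell in each library, without which the levels were 0 and 0.446. Somatostatin (Sst) was detected in 1 beta-like cell of library 1 and 3 of library 2. Gcg was detected in 26.7% and 29.8% of beta-like cells, against 10.8% and 14.1% of mesenchymal cells, and in 0 and 18.5% after thinning. Although below insulin, 7 beta-like cells of library 2 had at least 30 Gcg UMIs per 10000.

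**Figure D2:**
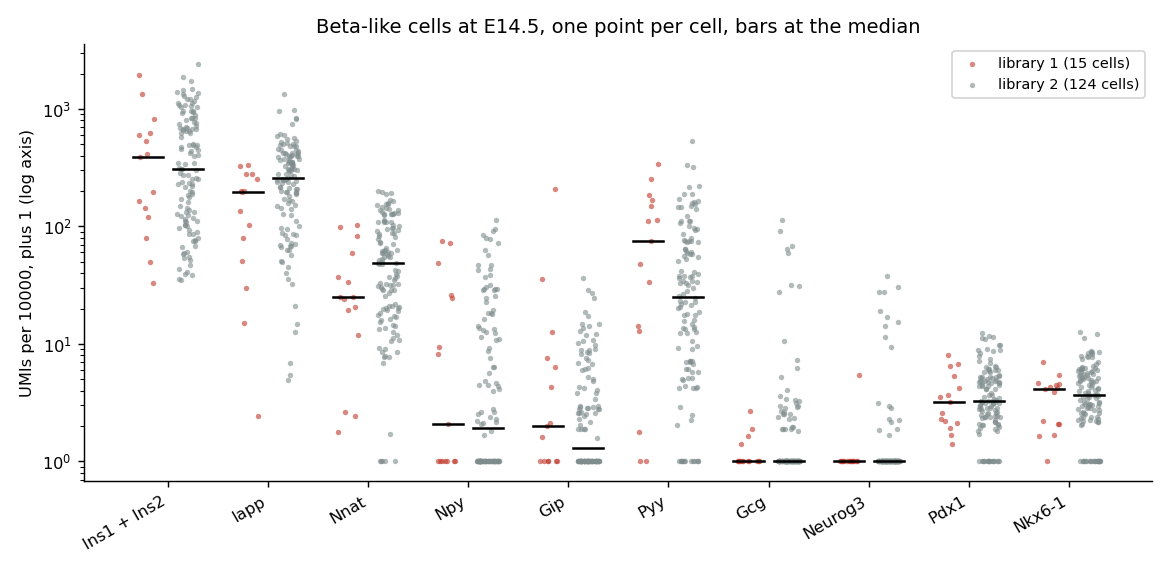
Each point is 1 beta-like cell and each bar a median, with UMIs per 10000 (plus 1) on a logarithmic axis for 10 genes or sums, library 1 in red (15 cells) and library 2 in grey (124 cells). Insulin and Iapp are present in every cell, Npy and Gip are at 0 in many, and Pyy ranges from 0 to 534 per 10000.

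The transcription factors that build beta cells were mostly present, while the maturity factor Mafa was not detected. Pdx1, which is needed for the pancreas and later for insulin transcription, was found in 100% and 86.3% of beta-like cells and had 2.15 against 0.696 UMIs per 10000 in library 1 (3.09-fold) and 2.82 against 0.845 in library 2 (3.34-fold). Pax6 (2.70-fold and 3.12-fold), Isl1 (3.13-fold and 2.34-fold) and Neurod1 (2.02-fold and 2.05-fold) were also at least 2-fold higher in both libraries, all 3 being factors of several islet cell types. Nkx2-2, needed for beta cell formation, differed little (1.14-fold and 1.34-fold). Mafa had 0 UMIs in all beta-like cells, which allows a share of cells with a UMI of up to 20% in library 1 and 2.42% in library 2 by the limit of 3 counts, and 21.8% and 2.93% by the exact interval. These limits concern cells with a UMI, not cells expressing the gene.

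Genes of glucose sensing and secretion were detected at low levels. Slc2a2, the glucose transporter of mouse beta cells, had 1.32 UMIs per 10000 in library 1 and 1.35 in library 2, against 0.268 and 0.185 in other endocrine cells. G6pc2, an islet glucose phosphatase, had 0.832 and 1.91 against 0.00824 (2 UMIs) and 0.0718. The zinc transporter of insulin granules, Slc30a8, had 0.490 and 1.58 against 0.0783 and 0.171, and the sulfonylurea receptor Abcc8 2.11 and 3.28 against 1.15 and 1.13. Ucn3, a peptide gene of mature beta cells, was detected in 20% and 11.3% of beta-like cells and 4.39% and 2.46% of other endocrine cells (6.67% and 6.45% against 2.63% and 1.85% after thinning), and in 0 and 0.0300% of mesenchymal cells. The channel subunit Kcnj11 had 0 UMIs in library 1 and 1 in library 2.

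The beta-like cells were next set against other endocrine cells over all genes. A gene was counted when its fold was at least 2 in the same direction in both libraries, among 2306 genes with at least 0.5 UMIs per 10000 over both classes, with the 6 genes used to choose cells left out. Of these, 80 were higher (3.47%) and 118 lower (5.12%) in beta-like cells. Sec31a and Gast passed 2-fold in opposite directions in the 2 libraries, and 157 of the 169 Gast UMIs of library 1 lay in 1 cell. When each cell weighed the same 38 genes were higher and 101 lower, and when cells were thinned to 3000 UMIs 58 and 28, of which 29 and 21 were among the 80 and 118. With barcodes bearing such other-type markers removed, 39 were higher and 78 lower.

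Gng12, Papss2 and Mlxipl had the next folds after Npy, Nnat, Gip and Iapp. Gng12, a G protein gamma subunit, had 6.51 against 0.663 UMIs per 10000 in library 1 (9.82-fold) and 9.06 against 1.06 in library 2 (8.55-fold). Papss2, which makes the sulfate donor PAPS, had 3.13 against 0.338 (9.28-fold) and 3.24 against 0.381 (8.50-fold). Mlxipl, which encodes the glucose-responsive transcription factor ChREBP, had 2.35 against 0.404 (5.82-fold) and 6.19 against 1.02 (6.09-fold). Hadh, an enzyme of fatty acid oxidation that restrains insulin release, was 4.00-fold and 3.91-fold higher. The tubulin gene Tuba1a (5.01-fold and 4.67-fold), the calcium binding protein gene Scgn (4.20-fold and 4.19-fold), the kinase gene Pak3 (4.4-fold and 4.03-fold) and the ER stress protein gene Manf (4.08-fold and 4.30-fold) followed. The list of the 15 largest was completed by 1110008P14Rik (5.04-fold and 5.14-fold), Ociad2 (3.86-fold and 6.23-fold) and Tssc4 (3.71-fold and 3.80-fold).

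**Figure D3:**
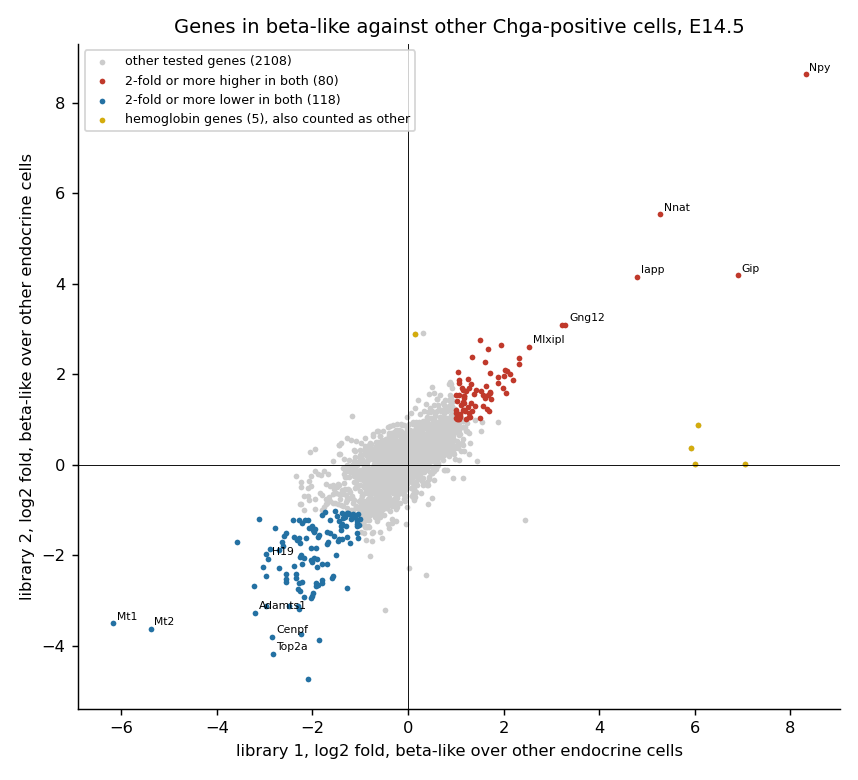
Each point is 1 of 2306 genes, with the log2 fold of beta-like over other endocrine cells in library 1 on the horizontal and in library 2 on the vertical axis. The 80 genes higher in both libraries are red, the 118 lower in both are blue, and 5 hemoglobin genes that stand off the diagonal are yellow.

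Mt1, Mt2, Top2a, Cenpf and Spp1 were among the genes with the smallest folds. The metallothionein genes Mt1 and Mt2, whose products bind metal ions, had 2 and 1 UMIs in the 15 beta-like cells of library 1 against 10.6 and 6.14 per 10000 in other endocrine cells. In library 2 they had 0.663 against 7.52 and 0.320 against 3.96. Top2a, the topoisomerase of dividing cells, had 0.343 against 2.44 (0.140-fold) and 0.0994 against 1.80 (0.0551-fold). It was detected in 20% and 4.84% of beta-like and 39.5% and 41.8% of other endocrine cells, or in 0 and 1.61% against 23.7% and 24.3% after thinning. In library 1, 5 of its 7 UMIs and 5 of 6 of Adamts1 came from 1 cell each. Cenpf, a kinetochore gene, had 0 UMIs in library 1 against 1.05 per 10000 and was 0.0713-fold in library 2. Spp1, the osteopontin gene of duct cells, had 1.42 against 6.91 in library 1, where all 29 UMIs lay in 1 cell, and 0.696 against 6.31 in library 2 (0.110-fold). The secreted proteases Adamts1 (0.109-fold and 0.103-fold) and Adamts9, the growth regulator Hmga2 (0.172-fold and 0.175-fold), lactate dehydrogenase Ldha (0.169-fold and 0.186-fold) and the imprinted RNA H19 (0.132-fold and 0.237-fold) were lower in both. Cks2, Birc5, Wfdc2, Col18a1 and the tight junction gene Cldn3 made up the 15 smallest folds.

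Gene lists could be counted only for members past the level limit, such as 13 of 30 beta cell genes, 3 of 20 of glucose sensing and 5 of 19 of G2 and mitosis. A gene can pass through the class in which it is high, so these counts are descriptions. Of the 13 beta cell genes 9 were higher and 0 lower (median log2 fold 1.54, against -0.02 over all 2306 genes). Over all 2306 genes 3.47% were higher and 5.12% lower. Nnat, Npy and Gng12, which led this same contrast, were among the 9. The list was chosen with earlier results of these data known, so its count was partly set in advance. Of 13 granule genes 5 were higher and 0 lower, with the processing protease Pcsk2 at 3.07-fold and 4.79-fold and the synaptotagmin gene Syt13 at 3.28-fold and 4.09-fold. Of 13 genes of ER folding and the unfolded protein response 5 were higher and 0 lower (median 1.10). These were the chaperone gene Hspa5 (2.07-fold and 4.13-fold), the disulfide isomerase genes Pdia4 and Pdia6, Manf and the translocon gene Sec61b. The list summed to 70.2 and 103 UMIs per 10000 in beta-like against 35.6 and 37.5 in other endocrine cells. Against the cells high in Gcg alone, described below, 1 of 17 granule genes was higher and 2 were lower. Of 14 ER folding genes 2 were higher and 0 lower there. Over all 2396 genes of that contrast 1.46% were higher and 1.17% lower. The granule list summed to 92.9 and 129 UMIs per 10000 in beta-like cells and to 119 and 140 in those high in Gcg. Of 3 countable genes of glucose sensing 0 were called, and of 8 late precursor genes 3 were higher, among them Cryba2 and Fam183b. Slc2a2, G6pc2 and Slc30a8, more than 2-fold higher in both libraries by the levels above, did not reach the level limit and were not counted.

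Progenitor, duct and cell cycle lists had members that were lower, where 5.12% of all 2306 genes were lower and 3.47% higher. Of 8 endocrine progenitor genes 3 were lower and 0 higher, namely Neurog3 (0.357-fold and 0.453-fold), Sox4 (0.403-fold and 0.447-fold) and Amotl2. All 11 Neurog3 UMIs of library 1 came from 1 beta-like cell, and in library 2 Neurog3 was detected in 15.3% of beta-like and 44.9% of other endocrine cells (2.13% of mesenchymal cells). Summed over all 19 genes of G2 and mitosis, whatever their level, beta-like cells had 1.08 and 2.24 UMIs per 10000 and other endocrine cells 10.9 and 13.52. The 18 S phase genes summed to 2.55 and 3.11 against 8.67 and 8.23, and the 15 duct and trunk genes, among them Sox9 and Clu, to 10.7 and 17.7 against 35.9 and 35.1. In the cells high in Gcg, described below, the duct and trunk genes summed to 19.3 and 17.2. The 18 endocrine progenitor genes summed to 9.32 and 9.10 there and to 9.01 and 15.3 in beta-like cells. The sums there were 10.3 and 6.65 for G2 and mitosis and 6.48 and 6.59 for S phase. Of 15 imprinted genes Nnat alone was higher, and Mest, Igf2, H19 and Cdkn1c, a cell cycle inhibitor of newly born endocrine cells, were lower. Of 4 acinar genes 2 were lower, of 7 epithelial genes 2, although Epcam was asked of the other endocrine cells only. No gene of the endothelial, leukocyte, neural or mesothelial lists reached the level needed to be counted, and these lists summed to at most 2.99 UMIs per 10000 in beta-like cells.

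The other endocrine cells were then split, since alpha-like cells and precursors differ from beta cells in different ways. Against the 34 and 51 Gcg-high cells (at least 30 Gcg UMIs per 10000, more than insulin), 35 of 2396 genes were higher (1.46%) and 28 lower (1.17%). The 35 include the hemoglobin genes Hba-a1 (49.4-fold and 2.64-fold) and Hbb-bt (47.2-fold and 2.00-fold), which were high in 1 beta-like cell of library 1 and 4 of library 2. Npy (65.9-fold and 63.2-fold), Nnat (187-fold and 27.4-fold), Mlxipl (8.37-fold and 5.68-fold), Gng12 (14.1-fold and 4.96-fold) and Pdx1 (8.95-fold and 4.92-fold) were higher. Iapp was 13.8-fold and 3.00-fold higher, and Gcg-high cells of library 2 still had 89.6 Iapp UMIs per 10000. Pyy was not among the genes called here. It was detected in 100% of Gcg-high cells of both libraries, and in 86.7% and 89.5% of beta-like cells. Sytl4, a granule-docking gene, had 1.71 and 2.76 UMIs per 10000 against 1 and 2 UMIs in the Gcg-high cells. Of 13 alpha cell genes 7 were lower and 0 higher, among them the thyroxine carrier gene Ttr (0.373-fold and 0.293-fold), the amino acid transporter Slc38a5 (0.186-fold and 0.202-fold), the collectrin gene Tmem27 (0.0998-fold and 0.142-fold) and the factor Irx2 (0.165-fold and 0.232-fold).

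Against the 34 and 122 cells with at least 2 Neurog3 UMIs, 129 of 2218 genes were higher (5.82%) and 164 lower (7.39%). Iapp was 361-fold and 74.4-fold higher, Isl1 10.6-fold and 2.89-fold, Pax6 5.76-fold and 2.66-fold, and the retinol carrier gene Rbp4 16.7-fold and 5.93-fold. Ttr, lower than in Gcg-high cells, was 5.09-fold and 6.36-fold higher than in Neurog3-positive cells, and Pyy 31.8-fold and 3.83-fold. Nkx6-1 (1.13-fold and 1.25-fold) and Nkx2-2 (1.02-fold and 0.840-fold) stayed under 2-fold. Neurog3 and Sox4, lower against all other endocrine cells, were 1.34-fold and 2.05-fold and 1.25-fold and 1.47-fold against Gcg-high cells.

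Over beta-like and other endocrine cells together, the genes whose level followed insulin most closely included Iapp, Pcsk2, Gng12, Syt13 and Chga. Their Spearman correlations with Ins1 plus Ins2 were 0.57 and 0.71 for Iapp, 0.54 and 0.57 for Pcsk2, 0.46 and 0.61 for Gng12, 0.42 and 0.44 for Syt13 and 0.42 and 0.45 for Chga, over 129 and 449 cells and 1032 genes. Cells of a library share its depth and free RNA, and Chga was used to choose them.

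Within the beta-like cells, those rich in insulin had more Npy, Nnat and Iapp and more transcripts of 10 of 19 countable ER folding genes. The cells were ranked by insulin in each library, and the 5 richest and 5 poorest of library 1 (median 817 and 78.7 per 10000) and the 41 richest and 41 poorest of library 2 (968 and 85.1) were compared, with Ins1 and Ins2 left out of the totals. Of 2422 genes, 63 were at least 2-fold higher in the insulin-rich cells of both libraries (2.60%) and 29 lower (1.20%). Cells with markers of other cell types numbered 0 among the rich and 2 among the poor in library 1, and 6 and 12 in library 2. Hemoglobin at 100 or more per 10000 was found in 0 rich and 4 poor cells of library 2, and their part in the differences was not tested.

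Of the genes higher in the rich cells Npy had the largest fold, with 198 UMIs in the rich and 1 in the poor cells of library 1 and 34.3 against 1.56 per 10000 in library 2 (22.1-fold). Nnat had 68.4 against 10.7 (6.40-fold) and 118 against 20.7 (5.73-fold), Iapp 292 against 111 (2.64-fold) and 425 against 156 (2.73-fold). G6pc2 was 4.34-fold higher in library 2, with 9 against 2 UMIs in library 1, and Arhgap36, a gene of the GTPase activating protein family, 7.04-fold, with 13 against 1 UMIs. Crot, a peroxisomal acyltransferase gene, and the pyrophosphatase gene Ppa1 were 3.37-fold and 3.27-fold higher in library 2. The transcription factor genes Pdx1 (1.83-fold and 1.01-fold) and Nkx6-1 (1.62-fold and 1.35-fold) stayed under 2-fold in both libraries. Over all 2422 genes 2.60% were higher in the rich cells and 1.20% lower. Of 6 countable endocrine progenitor genes 2 were lower in the rich cells and 0 higher, of 11 alpha cell genes 3 and 0, and of 8 late precursor genes 1 was lower and 1 higher. Of 19 ER folding genes 10 were higher and 0 lower (median log2 fold 1.25, against 0.12 over all 2422 genes). Hsp90b1, the ER chaperone Grp94, was 4.23-fold and 3.09-fold higher, Pdia6 3.26-fold and 3.14-fold, Pdia3 2.88-fold and 3.23-fold, Manf 6.09-fold and 2.46-fold, and the oxidase of the beta cell ER, Ero1lb, 2.26-fold and 4.62-fold.

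The insulin-poor cells carried more of Cdkn1a, a cell cycle inhibitor gene, with 18 against 0 UMIs in library 1 and 3.89 against 0.880 per 10000 in library 2. Neurog3 had 11 against 0 UMIs in library 1 and 164 against 1 in library 2. The growth factor gene Mdk had 8.35 against 1.89 and 7.62 against 1.97. The corepressor gene Runx1t1 and the serpin gene Serpina1c were lower in the rich cells of library 2, at 0.147-fold and 0.150-fold. Clps, the pancreatic colipase gene of acinar cells, had 187 against 2 UMIs in library 1, of which 179 lay in 1 cell, and 2.71 against 0.419 per 10000 in library 2. Pyy was 1.01-fold in library 1 and 0.298-fold in the rich cells of library 2. Over single cells, insulin went with Nnat (Spearman 0.80 and 0.72), Npy (0.73 and 0.58) and Iapp (0.66 and 0.60), and hardly with the UMI total (-0.10 and -0.12).

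**Figure D4:**
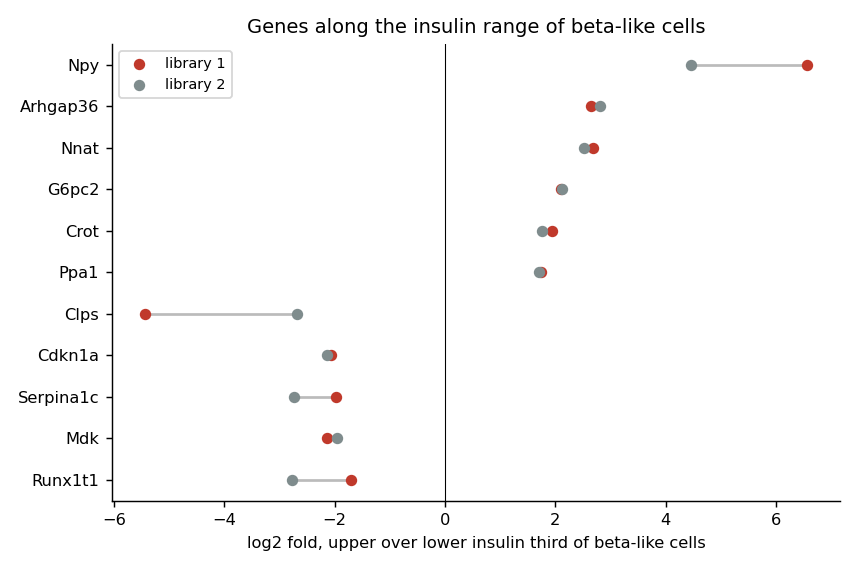
Log2 folds of the insulin-rich over the insulin-poor beta-like cells for 6 of the largest and 5 of the smallest genes, 1 point per library, library 1 in red (5 against 5 cells) and library 2 in grey (41 against 41). A class with fewer than 3 UMIs was set to 3 UMIs, which in library 1 applies to all of these genes but Nnat and Mdk.

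Several leading genes had similar levels in the beta-like cells of both libraries. Npy (13.2 and 12.0 per 10000), Ins2 (284 and 344) and Chgb (14.8 and 16) differed by less than 1.5-fold, while Nnat was 2-fold and Iapp 1.72-fold higher in library 2 and Pyy 0.460-fold. Rps27rt and Gm10709 differed between the libraries in all cells alike. Rps27rt had 38.4 in library 1 and 0.376 in library 2 in beta-like cells, against 53.9 and 0.604 in the remaining barcodes, and Gm10709 had 1 UMI in library 1 and 4.63 per 10000 in library 2, against 0.168 and 8.5 in the remaining barcodes. The gastrointestinal peptide gene Sct had 5.73 and 0.464 per 10000, with 69 of 117 UMIs of library 1 in 1 cell.

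Sorted E15.5 cells were then used to ask whether the droplet differences were found in samples that the rule had not used. Each compared group carried its own reporter, so differences of cell type, genotype and sort cannot be told apart here. The labels were checked first. Ins1 stood at 25784 and 42041 CPM (counts scaled to each set's total) in the 2 Ins1-RFP+ sets, 4162 and 5224 in Ngn3-GFPhigh and 63.1 and 102 in Gcg-GFP+ sets. Gcg stood at 12.2 and 18.2, 867 and 10638, and 52360 and 57359 CPM, so each sort held the hormone of its reporter. Each group had only 2 sets, and neither Ins1 nor Ins2 passed in the fit across all genes (adjusted p = 0.107 and 0.106 against Gcg-GFP+ sets, edgeR's quasi-likelihood test with Benjamini-Hochberg adjustment). Both comparisons share the Ins1-RFP+ sets.

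Against Ngn3-GFPhigh cells, whose sets already held insulin transcripts, 3 genes passed. Of 17595 genes 0 were higher (0.00%) and 3 lower (0.0171%) at an adjusted p under 0.05 in edgeR's quasi-likelihood test. At an unadjusted p under 0.05 there were 1630 genes in both directions, and DESeq2 called 260 higher and 450 lower and limma 13 and 41. The 3 were Tead2, a factor of the Hippo pathway (log2 fold change -4.4, SE 0.47), the cysteine dioxygenase gene Cdo1 (-5.56, SE 0.62) and the co-chaperone gene Dnajc22 (-7.43, SE 0.84), each with adjusted p = 0.0460 (edgeR, 2 sets against 2). Tead2 had 2.46 and 1.16 CPM in Ins1-RFP+ and 45.5 and 35.0 in Ngn3-GFPhigh sets, and it was also among the genes lower in droplet beta-like cells. All 3 lost their call without any 1 of the 4 sets.

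Of the 80 genes higher in droplet beta-like cells, 0 passed against Ngn3-GFPhigh cells (edgeR), 23 of 81 identifiers had an unadjusted p under 0.05, and 64 had a positive log2 fold change (median 0.46, against 0 over all genes). Of the 114 matched genes lower in droplet cells, 94 were negative (median -0.85) and 1 passed. Of the genes higher in insulin-rich beta-like cells 57 of 62 were positive (median 0.94), and of those lower 26 of 28 were negative (median -1.87). The ER folding list had 22 of 22 positive log2 fold changes (median 1.09), and in 21 both Ins1-RFP+ sets lay above both Ngn3-GFPhigh sets, but 0 passed. Over all 17595 genes 8119 log2 fold changes were positive and 8746 negative. In 2588 of all genes both Ins1-RFP+ sets lay above both Ngn3-GFPhigh sets. Hspa5 had 4414 and 3804 against 1177 and 1505 CPM (log2 fold change 1.74, SE 0.30, adjusted p = 0.131, edgeR, 2 sets each) and Hyou1, another ER chaperone, 709 and 570 against 150 and 179 (2.09, SE 0.29, adjusted p = 0.115). Npy had 1190 and 1217 against 158 and 292 CPM and Nnat 7688 and 10392 against 2284 and 3941, without overlap of the sets and with adjusted p = 0.790 and 0.613. Neurog3 had 0.214 and 9.78 against 537 and 410 CPM (adjusted p = 0.410).

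Against Gcg-GFP+ cells a part of the droplet differences passed. Of 17595 genes 59 were higher (0.335%) and 63 lower (0.358%) in Ins1-RFP+ cells. Of 81 identifiers of the genes higher in droplet beta-like cells 10 were higher (12.3%) and 0 lower, namely Atp2a2, Cd164, Gng12, Gpd2, Hadh, Mlxipl, Nnat, Papss2, Pdx1 and Sec61b. Of the 35 genes higher than in droplet Gcg-high cells 10 passed as higher (28.6%) and 0 as lower, and 34 had a positive log2 fold change (median 1.75). Over all 17595 genes 8211 log2 fold changes were positive (median 0). Of the 28 lower than in droplet Gcg-high cells 4 were lower (14.3%), Ttr, Cpn1 and the alpha-1 antitrypsin genes Serpina1a and Serpina1b, which share reads with near-identical copies. Of 62 genes higher in insulin-rich beta-like cells 10 were higher (16.1%), including the calcium pump gene Atp2a2, Sytl4, Crot and the ER genes Dnajb11 and Hyou1. Of the 114 genes lower in droplet beta-like cells 7 were lower (6.14%), among them Ccnd1, Mdk, Mest and Tpm1.

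The levels behind these calls were far apart for the genes that led the droplet contrast. Nnat had 7688 and 10392 CPM in Ins1-RFP+ sets and 20 and 19.2 in Gcg-GFP+ sets (log2 fold change 9.0, SE 1.2, adjusted p = 0.020, edgeR, 2 sets each). Pdx1 had 475 and 488 against 10.6 and 32.7 (4.59, SE 0.52, adjusted p = 0.0160). Gng12 had 1410 and 991 against 98.4 and 117 (3.62, SE 0.40, adjusted p = 0.0160). These 3 genes separated the sets as they separated the droplet classes. Mlxipl was higher by 3.84 (SE 0.49), Hadh by 2.96 (SE 0.36), Papss2 by 1.99 (SE 0.23) and Sytl4 by 13.85 (SE 1.47) on the log2 scale. Sytl4 had 1055 and 887 against 0.0577 and 0.0711 CPM. Such low CPM, also those of Frzb below, stand for very few reads in Gcg-GFP+ sets of 17321008 and 28137198 counts. The size of these folds is therefore uncertain. Npy had 1190 and 1217 against 1.21 and 0.142 CPM and did not pass (adjusted p = 0.171, edgeR), and neither did Iapp, with 15423 and 20353 against 8725 and 3351 (adjusted p = 0.147). Ttr was lower, with 686 and 803 against 7758 and 10325 CPM (log2 fold change -3.46, SE 0.53, adjusted p = 0.0281). Frzb, a secreted Wnt antagonist that was no droplet gene, had the smallest adjusted p (155 and 178 against 0.0577 and 0.0355 CPM, log2 fold change 11.82, SE 0.54, adjusted p = 5.2e-05) and was named after its value was seen.

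**Figure D5:**
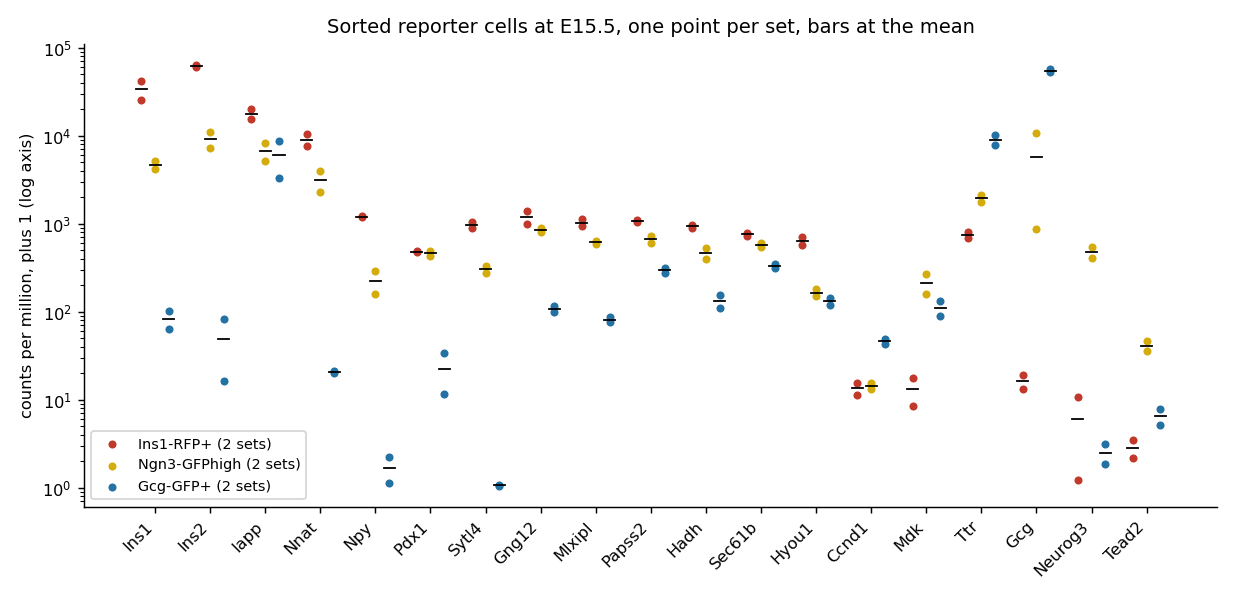
CPM (plus 1, logarithmic axis) in the E15.5 sorted cells for 19 genes, 1 point per set and a bar at the mean of 2 sets. Nnat, Pdx1 and Sytl4 are higher in Ins1-RFP+ and Ngn3-GFPhigh sets than in Gcg-GFP+ sets, and Gcg and Ttr are highest in Gcg-GFP+ and lowest in Ins1-RFP+ sets.

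The gene lists were counted in this comparison too, where 0.335% of all 17595 genes were higher and 0.358% lower. The lists were chosen with earlier results of these data known, so their counts are descriptions. Of 30 beta cell genes 5 were higher (Gng12, Nnat, Pcsk1, Pdx1 and Sytl4) and 0 lower (median log2 fold change 2.79), of 22 ER folding genes 3 were higher (Dnajb11, Hyou1 and Sec61b, median 1.08), of 16 alpha cell genes Ttr was lower, and of 9 cell cycle exit genes Ccnd1 and Ccnd2. The calls rest on few sets. Without Ins1-RFP+ set 1, the set of 10 cells, 7 genes passed in place of 122, and without its set 2, 77. Without Gcg-GFP+ set 1 or 2 there were 29 or 34. Frzb kept its call in all 4 of these fits, and Pdx1 and Serpina1b lost theirs only without Ins1-RFP+ set 1.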

How the data were processed

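Droplet libraries were made with the Single Cell 3′ kit v2, and the authors' deposited files hold raw UMI counts per gene and barcode, made with Cell Ranger 2.0.2 on mm10, per the submitters' processing notes. The deposited Smart-seq2 table holds raw read counts per gene and cell, with no molecular identifiers, made with TopHat2 2.1.0, Bowtie2 and HTSeq 0.6.0. The gene annotation is not given in the sources used here.

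Members and lists were chosen with earlier results of these data known. UMIs were pooled per class and library and scaled to 10000, and a fold used a floor of 3 counts per class. Intervals are exact Clopper-Pearson at 95% and, like floors, cover counting error only. Doublets were not removed, since Scrublet (scanpy 1.11.5) marked 4 of 3406 barcodes (0.117%, too few to have worked) and 189 of 6764 (2.79%), with 0 and 2 beta-like cells among them. Named genes were the 15 largest and 15 smallest folds, by the less extreme library, among genes past 2-fold in both and at 1 or more per 10000 in the higher class, the 6 and 6 for the insulin ranks, the 6 most like insulin, and members of the lists; some genes these rules name are not reported here.

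Smart-seq2 counts, 9352969 to 37117826 per compared set, were summed per set without spike-ins and fitted in R 4.3.3 over 11 E15.5 sets by the quasi-likelihood test of edgeR 4.0.16, after filterByExpr and TMM scaling, and genes passed below 0.05 after Benjamini-Hochberg adjustment. Log2 fold changes are Ins1-RFP+ over the other group and SE is its size divided by the square root of the F statistic. DESeq2 1.42.0, limma 3.58.1, a replicate block, other filters, rule limits and classes were tried as alternatives. Python 3.11.15, numpy 2.4.6 and scipy 1.17.1 were used. The tests were checked on simulated data.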

Additional observations from a re-analysis of the deposited data

How the results depend on the processing

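The number of beta-like cells, 139, became 112 with insulin at 100 or more per 10000, 67 with Epcam required, 70 with under 5% mt- counts and 108 without barcodes that carried markers of other cell types. The 80 higher and 118 lower droplet genes became 37 and 59 with Chga at 3 or more UMIs, 35 and 59 with a contrast of 0 Ptprc and at least 3 Chga UMIs, 39 and 78 without barcodes with markers of other cell types, 156 and 264 with a level of at least 0.2, and 16 and 25 with a level of at least 2. Of the 37 and 59 genes with Chga at 3 or more UMIs, 25 and 49 were among the 80 and 118. Weighing cells equally gave 38 higher genes, thinning 28 lower genes, a contrast of Gcg-high cells 35 and 28, and of Neurog3-positive cells 129 higher genes. The contrast with Gcg-high cells turned Neurog3 to a log2 fold of 0.73 and Sox4 to 0.44, because these cells hold less of both. Without hemoglobin-rich cells, an alternative chosen after seeing the data like both split contrasts, 89 genes were higher and 114 lower. The 92 genes along insulin became 51 with cells split at the median and 27 after thinning. Against Ngn3-GFPhigh cells the 3 genes became 710 with DESeq2, 54 with limma, 11 without a filter, 1 with only the 2 groups and 0 to 6 without 1 set. Against Gcg-GFP+ cells the 122 became 1307 with DESeq2, 445 with limma and 7 to 77 without 1 set. Sets share only a number: deviations of same-numbered sets correlated at 0.0285 and 0.0322 over 17595 genes, and a replicate block by set left 0 and 35 genes, 30 of the 35 shared with the fit without it. For single named genes, 511 of 840 droplet values, 84 of 156 values along insulin, 241 of 419 against Gcg-GFP+ and 40 of 59 against Ngn3-GFPhigh cells kept their size or call, and the cause of the other changes was not tested. The levels of 0.2 and 2 each kept all 42 droplet values by construction, since they change which genes count and not the folds. Staying uncalled was scored as kept, as for Npy, Nnat and Iapp against Ngn3-GFPhigh cells. Of those 59 values 18 lost a call, in the 3 genes that had passed. The number of cells limits library 1, where 15 beta-like cells together held few UMIs of most genes. Per cell library 1 was the deeper, with a median of 11280 UMIs against 6492.5 in beta-like cells of library 2.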
